A study of Glycine max with 6 samples.

Results

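The transcripts of 73 soybean genes, most of them for enzymes that make or break down chlorophyll and its tetrapyrrole precursors, were followed in leaves, out of 36827 genes listed in the deposited tables. The genes were chosen by the protein description that the deposited whole-series table gives for each, using the names of the enzymes of tetrapyrrole and chlorophyll metabolism, the words stay-green and the words senescence-associated. The rule reads descriptions only, but it was set with earlier results of these data known. By description the members fall into 8 genes of early synthesis, 9 of the steps common to all tetrapyrroles, 23 of the magnesium branch, 8 of the heme and siroheme side branches, 12 of breakdown and 11 called senescence-associated. The remaining 2 are described as protochlorophyllide-dependent translocon components. No member carried the description pheophytinase, one of the words of the rule.

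RNA came from the trifoliolate leaves of soybean (Glycine max) at germination day 30, in 6 libraries. The first group, labelled GmRAV1-ox with the genotype GmRAV1, had 3 libraries, and the suffix is read here as overexpression of the transcription factor GmRAV1. The other group, DN50, labelled wild type, also had 3. The labels give neither the promoter of the transgene nor the number of lines, and they do not say that replicates were separate plants, so a p-value here speaks of the spread among these samples, which may be technical.

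Chlorophyll is a tetrapyrrole built in the plastid. Glutamyl-tRNA reductase commits glutamate to 5-aminolevulinate, whose molecules are joined and oxidised to protoporphyrin IX. Ferrochelatase then inserts iron to give heme, while magnesium chelatase inserts magnesium and opens the branch to chlorophyll. In senescing leaves chlorophyll b is first turned back to chlorophyll a, the magnesium is removed by stay-green protein, and pheophorbide a oxygenase opens the ring, which ends the green colour. In Arabidopsis, genes for glutamyl-tRNA reductase, magnesium chelatase subunit H, the monomethyl ester cyclase and chlorophyllide a oxygenase are known to follow light and the day in parallel.

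Library totals lay between 7208496 and 7684540 estimated counts. On the first principal component of all genes, with 62.6% of the variance, GmRAV1-ox replicate 3 lay at -16.5 and the other GmRAV1-ox libraries at 71.6 and 100.1, against -64.0, -10.3 and -81.0 for DN50 replicates 1 to 3. For the genes named below, a call that appears without GmRAV1-ox replicate 3 is therefore given beside the value with all libraries. The files do not say which gene is GmRAV1. Of the 4 genes described as RAV-like or as TEM-like repressors with AP2 and B3 domains, 3 were tested, with log2 fold changes of -0.05, -0.26 and -0.04, and none passed. The fourth, Glyma20g32730.1, had 1.496, 2.67 and 0.281 RPKM in the GmRAV1-ox libraries, against 0.150, 0.553 and 0.385 RPKM in the DN50 libraries, on 2 to 23 counts in GmRAV1-ox libraries and 1 to 4 in DN50 libraries. It was too scarce to be tested with all 6 libraries, and without GmRAV1-ox replicate 3 it was called higher, at a log2 fold change of 2.44 and an adjusted p of 0.0273. The group is called by its label. Defining leaf transcripts (Rubisco small chain, Rubisco activase and chlorophyll a-b binding proteins) were abundant in all 6 libraries, with summed levels of 105933, 83186 and 140313 RPKM in the GmRAV1-ox libraries and 164266, 134675 and 98433 RPKM in the DN50 libraries, and the 4 seed storage and oleosin genes summed to under 3 RPKM in each library. No gene of the leaf, root and nodule or flower marker lists passed edgeR's test, and 5 leaf genes were lower by DESeq2, beside 3.96% of all genes. The medians were -0.61 for 36 leaf genes, -0.22 for 10 root and nodule genes and 0.29 for 11 flower genes. No seed gene could be tested. Without GmRAV1-ox replicate 3, 8 leaf genes were called lower and 0 higher, 1 root and nodule gene lower and 2 higher, and 1 flower gene higher. In that setting 9.66% of all genes were called lower and 8.62% higher. In whole leaves, fewer cells of a type and less RNA per cell cannot be told apart.

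Of the 73 members, 65 had enough counts to be tested. Of these 65, 5 were lower in GmRAV1-ox at an adjusted p under 0.05 and 0 were higher, where 0.579% of all 26272 tested genes were called lower and 0.122% higher. These 5 are a pair of genes for chlorophyllide a oxygenase, the one member for pheophorbide a oxygenase, a carboxylesterase 101-like gene and a translocon component 52 gene. The chlorophyllide a oxygenase pair shares reads, so its calls are not separate results. At an unadjusted p under 0.05, 22 members were lower and 8 higher, beside 10.7% and 10.6% of all tested genes. All 3 GmRAV1-ox libraries lay below all 3 DN50 libraries for 21 members, and above them for 9, beside 13.1% and 12.9% of all tested genes. The median log2 fold change of the tested members was -0.35, against 0.01 over all tested genes. Without GmRAV1-ox replicate 3, 22 members were called lower and 3 higher, the 5 above among them, and 9.66% and 8.62% of all genes then tested were called in these directions. Leaving out any one of 4 libraries (GmRAV1-ox replicates 1 and 2, DN50 replicates 1 and 3) left 0 members and 0 of all genes called, while leaving out DN50 replicate 2 gave the same 5, beside 0.545% of all genes lower and 0.166% higher. DESeq2 called 16 members lower and 0 higher, beside 3.96% and 2.5% of all genes. For limma on log2(FPKM + 1) these were 5 and 0 members, beside 0.461% and 0.244% of all genes.

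The lists did not share one direction. Median log2 fold changes were 0.28 for early synthesis, 0.44 for the common steps, -0.03 for the heme and siroheme branches, -0.39 for the magnesium branch, -0.58 for breakdown and -0.82 for the senescence-associated genes. Early synthesis was itself split, with 5 estimates above 0 and 3 below. Its summed level had means of 807 RPKM in GmRAV1-ox and 814 RPKM in DN50, or 893 and 778 in deposited FPKM. Without library scaling factors the median of all genes shifted from 0.01 to 0.20, and the sign of the heme and siroheme median turned, at 0.16, while the other lists kept theirs. Of the 8 tested genes of the common steps, 8 had estimates above 0, and of the 20 tested genes of the magnesium branch, 16 had estimates below 0. The rule does not cover all of the common steps. The aminolevulinic acid dehydratase genes Glyma04g42670.1 and Glyma06g12110.1 lie outside it and had estimates of -0.09 and -0.24. Other genes outside it, with the KEGG orthology number of porphobilinogen deaminase or uroporphyrinogen decarboxylase, had 0.23, 0.43 and 0.15. No test was made of the difference between lists.

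**Figure D1:**
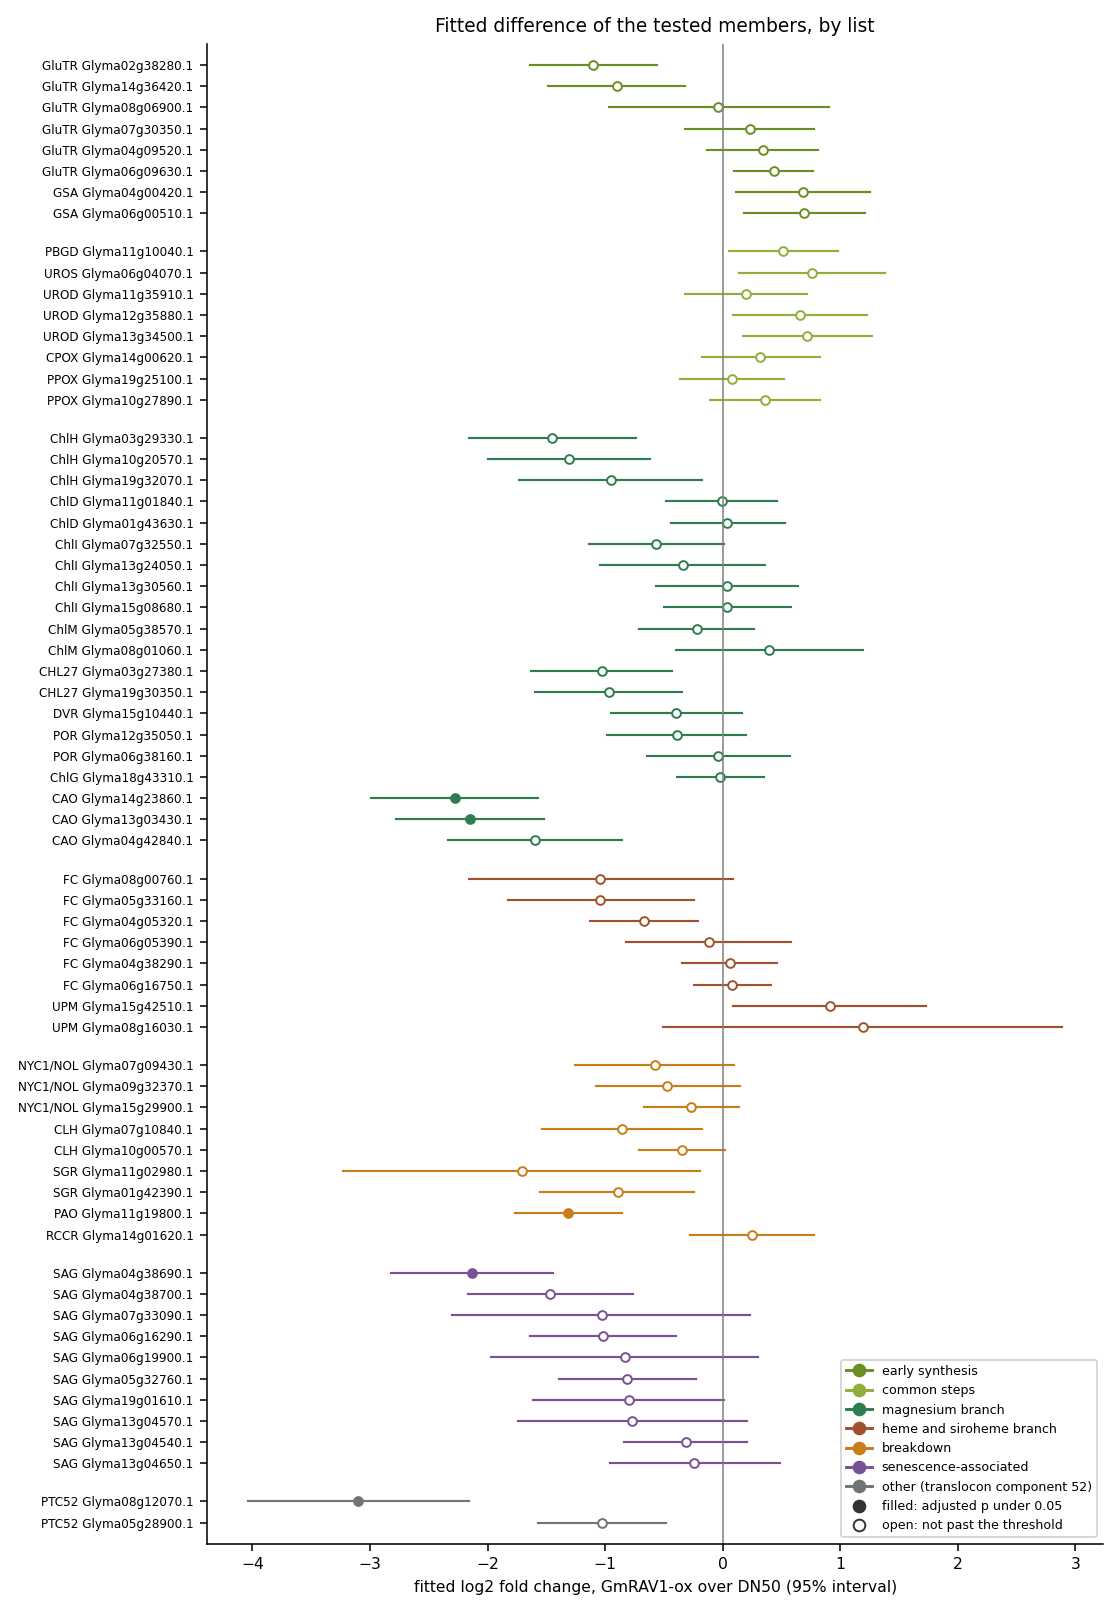
Fitted log2 fold change of GmRAV1-ox over DN50 (horizontal axis) with its 95% interval for each of the 65 tested members, grouped by list in pathway order and coloured by list. Filled points mark the 5 genes with an adjusted p under 0.05, all left of 0, and all points of the common steps lie right of 0.

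Levels below are RPKM, counts per kilobase of coding length after scaling each library to a common depth, so that genes can be compared with each other. Values of a group are always given for replicates 1, 2 and 3 in that order. Adjusted p-values without GmRAV1-ox replicate 3 come from a setting in which 9.66% of all genes were called lower and 8.62% higher. With all libraries these shares were 0.579% and 0.122%. A call made only in that setting is therefore not particular to the gene.

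Early synthesis makes 5-aminolevulinate, the precursor whose supply sets the flow into all tetrapyrroles. Glutamyl-tRNA reductase, the first committed enzyme, has 6 members here, which fell into an abundant pair, an intermediate pair and a scarce pair. Glyma14g36420.1, the most abundant, had 129, 124 and 129 RPKM in the GmRAV1-ox libraries, against 317, 221 and 175 RPKM in the DN50 libraries. Glyma02g38280.1, its near equal, had 95.9, 78.6 and 97.9 RPKM in the GmRAV1-ox libraries, against 248, 172 and 163 RPKM in the DN50 libraries. In both genes every GmRAV1-ox library lay below every DN50 library, and DN50 replicate 1 was the highest of the 6. Neither gene passed the test, with log2 fold change -0.90 with an SE of 0.25 and an adjusted p of 0.123 for the first. The second had log2 fold change -1.10 with an SE of 0.24 and an adjusted p of 0.0816, which became an adjusted p of 0.0168 if GmRAV1-ox replicate 3 was left out.

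The intermediate pair of reductase genes lay on the other side. Glyma04g09520.1 had 60.04, 55.8 and 56.7 RPKM in the GmRAV1-ox libraries, against 47.6, 54.4 and 34.4 RPKM in the DN50 libraries, and its groups did not overlap although DN50 replicate 2 came close. Glyma06g09630.1 had 20.6, 18.3 and 18.9 RPKM in the GmRAV1-ox libraries, against 15.3, 14.1 and 13.3 RPKM in the DN50 libraries, again with every GmRAV1-ox library above every DN50 library. Their log2 fold changes of 0.34 and 0.44 did not pass the test, with adjusted p-values of 0.364 and 0.158. The scarce pair, described as glutamyl-tRNA reductase 2, stayed between 2.69 and 9.43 RPKM in all libraries, with groups that overlapped. Within each library the abundant pair summed to a multiple of the intermediate pair that was 2.79, 2.73 and 3.00 in the GmRAV1-ox libraries, against 8.98, 5.73 and 7.10 in the DN50 libraries, so the groups were apart on this measure, which needs no scaling between libraries. Over all 6 genes the step summed to 305 ± 19.1 RPKM in GmRAV1-ox and 501 ± 126 RPKM in DN50 (SD, n = 3 each).

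Glutamate-1-semialdehyde aminomutase, which completes 5-aminolevulinate, lay higher in GmRAV1-ox in both of its genes. Glyma04g00420.1 had 338, 411 and 294 RPKM in the GmRAV1-ox libraries, against 254, 229 and 168 RPKM in the DN50 libraries. Glyma06g00510.1 had 151, 164 and 149 RPKM in the GmRAV1-ox libraries, against 111, 106 and 70.4 RPKM in the DN50 libraries. The groups were apart in both, with GmRAV1-ox replicate 3 the lowest of its group in each and DN50 replicate 3 the lowest of the 6. The estimates did not pass the test: log2 fold change 0.68 with an SE of 0.25 and an adjusted p of 0.178 for the first, and log2 fold change 0.69 with an SE of 0.22 and an adjusted p of 0.15 for the second. The ratio of summed aminomutase to summed reductase transcripts was 1.55, 2.04 and 1.41 in the GmRAV1-ox libraries, against 0.571, 0.713 and 0.606 in the DN50 libraries. The aminomutase sum exceeded the reductase sum in each GmRAV1-ox library and fell short of it in each DN50 library.

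The steps common to heme and chlorophyll, which assemble and oxidise the ring, had 0 of 8 tested genes past the test of edgeR and 0 by DESeq2 and limma. At an unadjusted p under 0.05 in edgeR, 4 were higher, beside 10.6% of all tested genes. Porphobilinogen deaminase, which links the pyrrole units, has the member Glyma11g10040.1, with 105, 114 and 87.5 RPKM in the GmRAV1-ox libraries, against 79.7, 77.5 and 57.1 RPKM in the DN50 libraries. Uroporphyrinogen-III synthase, which closes the ring, is Glyma06g04070.1 and had 50.7, 55.8 and 38.1 RPKM in the GmRAV1-ox libraries, against 29.3, 37.6 and 18.6 RPKM in the DN50 libraries. For both, each GmRAV1-ox library lay above each DN50 library, though GmRAV1-ox replicate 3 and DN50 replicate 2 were close to each other in the synthase. The deaminase member had log2 fold change 0.51 with an SE of 0.20 and an adjusted p of 0.2. Glyma01g43720.1 and Glyma12g02380.1, outside the rule but with its KEGG orthology number, had 0.23 and 0.43 (adjusted p 0.52 and 0.314). The groups overlapped in each of them. The synthase had log2 fold change 0.76 with an SE of 0.27 and an adjusted p of 0.174, and it passed once GmRAV1-ox replicate 3 was left out (adjusted p 0.0481).

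Uroporphyrinogen decarboxylase, which trims the side chains of the ring, has 3 members. Glyma13g34500.1 had 57.4, 74.8 and 47.3 RPKM in the GmRAV1-ox libraries, against 42.3, 39.5 and 27.4 RPKM in the DN50 libraries, with no overlap. Glyma12g35880.1 had 110.4, 129 and 73.5 RPKM in the GmRAV1-ox libraries, against 75.9, 67.3 and 55.0 RPKM in the DN50 libraries, where GmRAV1-ox replicate 3 fell just below DN50 replicate 1. Glyma11g35910.1, the most abundant member, had 147, 132 and 115 RPKM in the GmRAV1-ox libraries, against 134, 123 and 85.6 RPKM in the DN50 libraries, and its groups overlapped. The first 2 were called only without GmRAV1-ox replicate 3, at adjusted p-values of 0.0328 and 0.0241, against 0.155 and 0.185 with all 6 libraries. Coproporphyrinogen-III oxidase, the next enzyme, is Glyma14g00620.1 and had 226, 233 and 210.5 RPKM in the GmRAV1-ox libraries, against 208, 190.4 and 136 RPKM in the DN50 libraries. Its groups were just apart, with GmRAV1-ox replicate 3 next to DN50 replicate 1, and its log2 fold change was 0.32 with an adjusted p of 0.419. Protoporphyrinogen oxidase, which gives protoporphyrin IX, is led by Glyma10g27890.1 with 115, 116 and 93.5 RPKM in the GmRAV1-ox libraries, against 99.04, 83.5 and 71.7 RPKM in the DN50 libraries, and these groups overlapped.

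Magnesium chelatase joins a porphyrin-binding subunit H to the subunits D and I, which form its motor. All 3 genes for subunit H lay lower in every GmRAV1-ox library than in any DN50 library, while subunits D and I did not separate the groups. Glyma03g29330.1 had 221, 151 and 211 RPKM in the GmRAV1-ox libraries, against 717, 409 and 467 RPKM in the DN50 libraries. Glyma19g32070.1 had 200.3, 166 and 304 RPKM in the GmRAV1-ox libraries, against 589.5, 333 and 375 RPKM in the DN50 libraries. Glyma10g20570.1 had 164, 113 and 177 RPKM in the GmRAV1-ox libraries, against 463, 273 and 386 RPKM in the DN50 libraries. DN50 replicate 1 was the highest library and GmRAV1-ox replicate 2 the lowest in each of the 3. Summed, subunit H came to 569 ± 132 RPKM in GmRAV1-ox and 1338 ± 389 RPKM in DN50 (SD, n = 3 each). None of the 3 passed the test, with log2 fold changes of -1.45, -0.95 and -1.31 and adjusted p-values of 0.0815, 0.173 and 0.0943. Without GmRAV1-ox replicate 3 these adjusted p-values became 0.0169, 0.0275 and 0.0163, in a setting where 9.66% of all genes were called lower.

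The main gene for subunit I, Glyma13g30560.1, had 545, 498 and 628 RPKM in the GmRAV1-ox libraries, against 657, 581 and 392 RPKM in the DN50 libraries. The main gene for subunit D, Glyma01g43630.1, had 92.9, 93.4 and 99.1 RPKM in the GmRAV1-ox libraries, against 109, 96.4 and 71.7 RPKM in the DN50 libraries. The groups overlapped in both, with DN50 replicate 1 the highest and DN50 replicate 3 the lowest library. Their log2 fold changes were 0.04 (95% interval -0.57 to 0.64) and 0.04 (95% interval -0.44 to 0.53). The sign of both turned without DN50 replicate 3 and without GmRAV1-ox replicate 3. The second subunit I gene, Glyma15g08680.1, had 0.04, but the scarcer Glyma07g32550.1 and Glyma13g24050.1 had -0.57 and -0.34 (adjusted p 0.24 and 0.545). Without GmRAV1-ox replicate 3, Glyma07g32550.1 was itself called lower, at -0.89 and an adjusted p of 0.0167. Within a library, summed subunit H stood to summed subunit I at 0.645, 0.527 and 0.657 in the GmRAV1-ox libraries, against 1.63, 1.06 and 1.79 in the DN50 libraries. The groups did not overlap on this ratio, and subunit I exceeded subunit H in each GmRAV1-ox library but in no DN50 library. The ratio of subunit D to subunit I was 0.153, 0.169 and 0.1397 in the GmRAV1-ox libraries, against 0.151, 0.151 and 0.156 in the DN50 libraries, with overlap.

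The next enzyme, magnesium protoporphyrin IX methyltransferase, summed to 378, 379 and 475 RPKM in the GmRAV1-ox libraries, against 482, 407 and 272 RPKM in the DN50 libraries, and the groups overlapped. The monomethyl ester cyclase, which forms the fifth ring of chlorophyll, did not. Its main gene, Glyma19g30350.1, had 723, 572 and 729 RPKM in the GmRAV1-ox libraries, against 1718, 1134 and 1127 RPKM in the DN50 libraries. Its second gene, Glyma03g27380.1, had 444, 379.8 and 402 RPKM in the GmRAV1-ox libraries, against 1097, 719.8 and 692 RPKM in the DN50 libraries. Every GmRAV1-ox library lay below every DN50 library in both genes, and DN50 replicate 1 again stood highest. Neither passed the test, with log2 fold change -0.97 with an SE of 0.27 and an adjusted p of 0.122 for the main gene. The second gene had log2 fold change -1.03 with an SE of 0.26 and an adjusted p of 0.107, and without GmRAV1-ox replicate 3 the adjusted p-values were 0.0407 and 0.0378. The ratio of cyclase to methyltransferase was 3.08, 2.51 and 2.38 in the GmRAV1-ox libraries, against 5.84, 4.56 and 6.69 in the DN50 libraries, with the groups apart.

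Protochlorophyllide reductase, the light-dependent step, is led by Glyma12g35050.1 with 1023, 934 and 966 RPKM in the GmRAV1-ox libraries, against 1587, 1241 and 1003 RPKM in the DN50 libraries. The groups overlapped at DN50 replicate 3, the log2 fold change was -0.39 and the 95% interval ran from -0.98 to 0.20. Divinyl reductase, which reduces a side chain of the ring, is Glyma15g10440.1 and had 35.4, 34.4 and 29.2 RPKM in the GmRAV1-ox libraries, against 58.5, 41.1 and 30.9 RPKM in the DN50 libraries. Its groups overlapped at DN50 replicate 3. Chlorophyll synthase, which attaches the phytol tail, has the tested member Glyma18g43310.1, with 38.0, 33.1 and 30.9 RPKM in the GmRAV1-ox libraries, against 36.5, 36.5 and 30.7 RPKM in the DN50 libraries. Its groups overlapped, with a log2 fold change of -0.02 (95% interval -0.39 to 0.35) that turned to 0.18 without scaling factors. Glyma07g18470.1, outside the rule but with the same KEGG orthology number, was more abundant, at means of 53.5 RPKM in GmRAV1-ox and 48.1 RPKM in DN50. Its groups overlapped too, at a log2 fold change of 0.15 and an adjusted p of 0.672.

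Chlorophyllide a oxygenase, which makes chlorophyll b from the a form, stood, over its 4 members, at 0.247 of its DN50 level in GmRAV1-ox, the lowest share among the synthesis steps. Glyma13g03430.1 had 19.9, 15.1 and 14.2 RPKM in the GmRAV1-ox libraries, against 95.9, 49.6 and 72.5 RPKM in the DN50 libraries. Glyma14g23860.1 had 6.16, 4.10 and 6.03 RPKM in the GmRAV1-ox libraries, against 37.0, 17.5 and 24.4 RPKM in the DN50 libraries. Glyma04g42840.1 had 10.5, 6.68 and 13.7 RPKM in the GmRAV1-ox libraries, against 36.3, 20.5 and 36.4 RPKM in the DN50 libraries. No GmRAV1-ox library reached any DN50 library in these 3 genes, and DN50 replicate 2 was the lowest of the DN50 libraries in each. Glyma13g03430.1 fell 4.43-fold in GmRAV1-ox, with log2 fold change -2.15 with an SE of 0.27 and an adjusted p of 0.0357. Glyma14g23860.1 fell 4.84-fold, with log2 fold change -2.28 with an SE of 0.31 and an adjusted p of 0.0363. Glyma04g42840.1 did not pass, with log2 fold change -1.60 with an SE of 0.32 and an adjusted p of 0.0752, or 0.00722 without GmRAV1-ox replicate 3. Both calls were lost when any one of the same 4 libraries was left out, at log2 fold changes of -2.31 to -1.91 for the first and -2.38 to -1.96 for the second. The fourth member, Glyma06g11920.1, had under 1 RPKM in every library and was not tested. Summed, the step came to 32.4 ± 5.62 RPKM in GmRAV1-ox and 131 ± 40.9 RPKM in DN50 (SD, n = 3 each). These genes share reads, since their deposited counts are not whole in 5 or 6 libraries, so the sum is firmer than the split between copies. The counts of Glyma13g03430.1 and Glyma14g23860.1 add to whole numbers in every library. These 2 called genes therefore share reads with each other and are not separate results. The ratio of this sum to that of the chlorophyll synthase members was 0.974, 0.789 and 1.09 in the GmRAV1-ox libraries, against 4.65, 2.42 and 4.37 in the DN50 libraries. It leaves out the more abundant synthase-like gene Glyma07g18470.1.

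**Figure D2:**
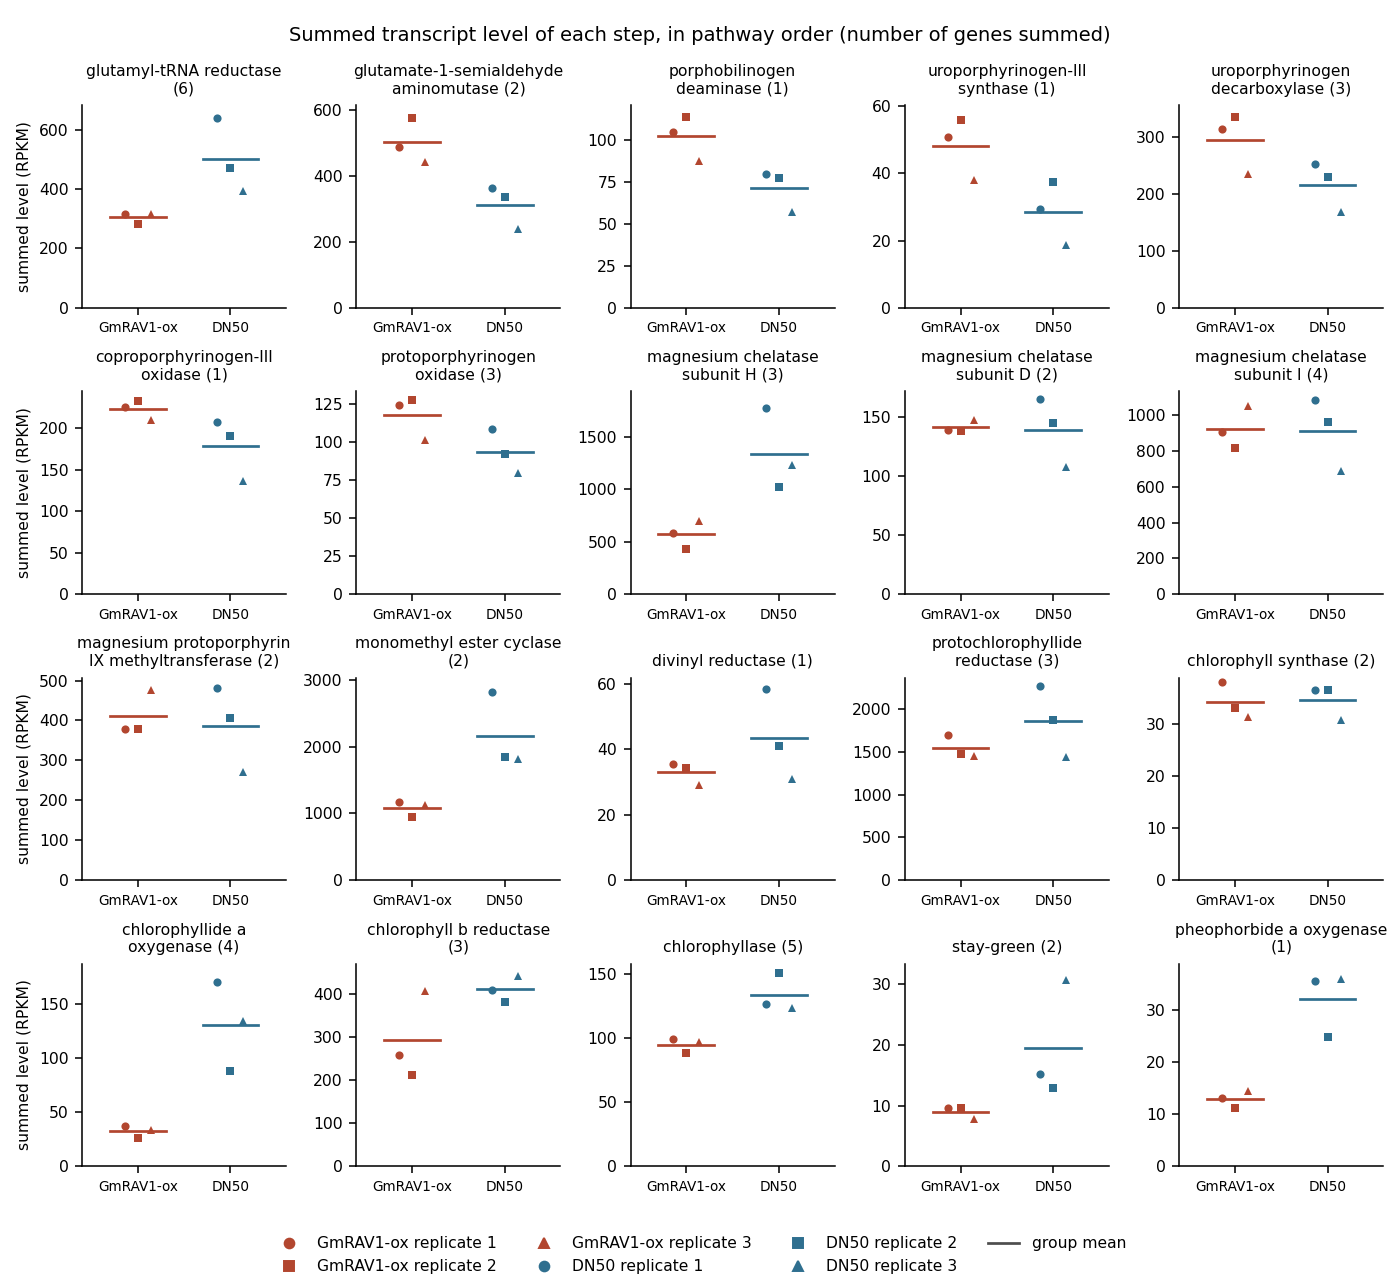
Summed level in RPKM (vertical axes, each from 0) of all members of 20 steps in pathway order, for the 3 GmRAV1-ox libraries (left) and the 3 DN50 libraries (right), with lines at the group means. The groups are apart, with GmRAV1-ox lower, at glutamyl-tRNA reductase, chelatase subunit H, the cyclase, chlorophyllide a oxygenase, chlorophyllase, stay-green and pheophorbide a oxygenase, and apart with GmRAV1-ox higher at the aminomutase, porphobilinogen deaminase, uroporphyrinogen-III synthase and coproporphyrinogen-III oxidase.

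**Figure D3:**
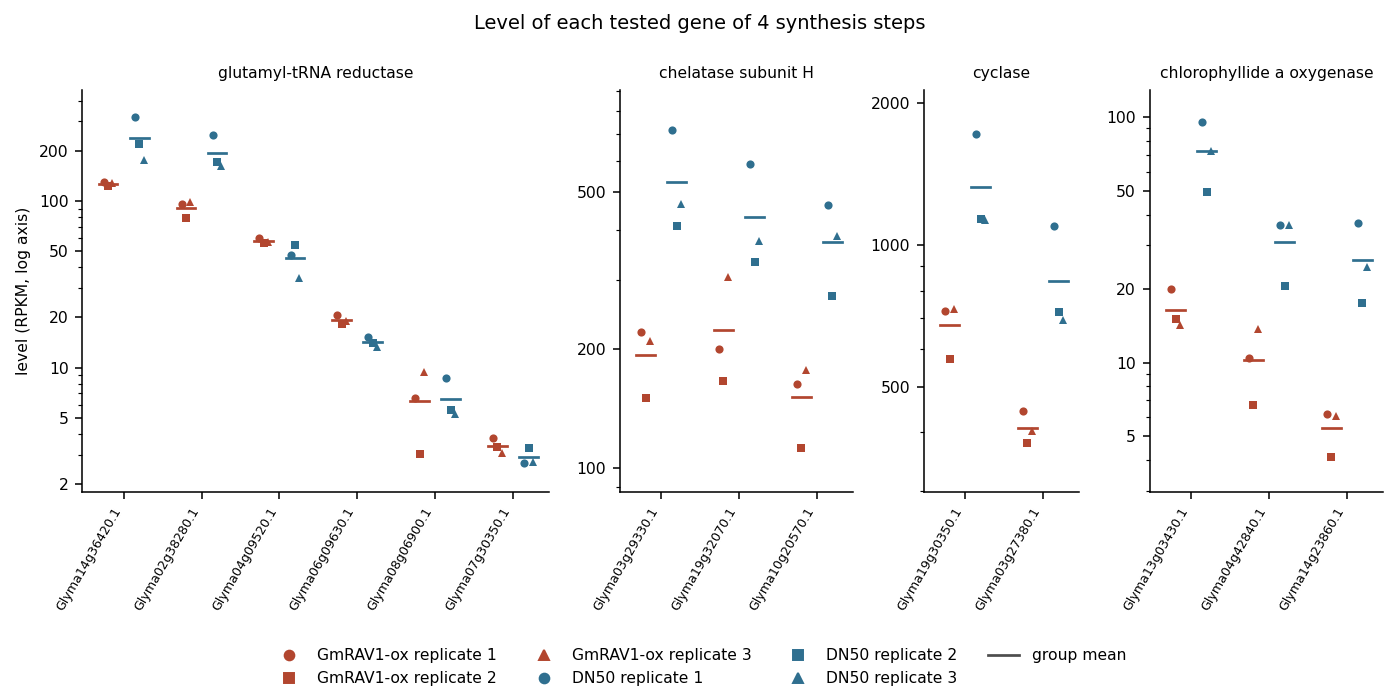
Level in RPKM (log axis) of each tested gene of 4 synthesis steps in each library, GmRAV1-ox left of DN50 for each gene, with lines at the group means. The most abundant pair of glutamyl-tRNA reductase genes lies lower in GmRAV1-ox and the next pair higher, while all genes of the other 3 steps lie lower.

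**Figure D4:**
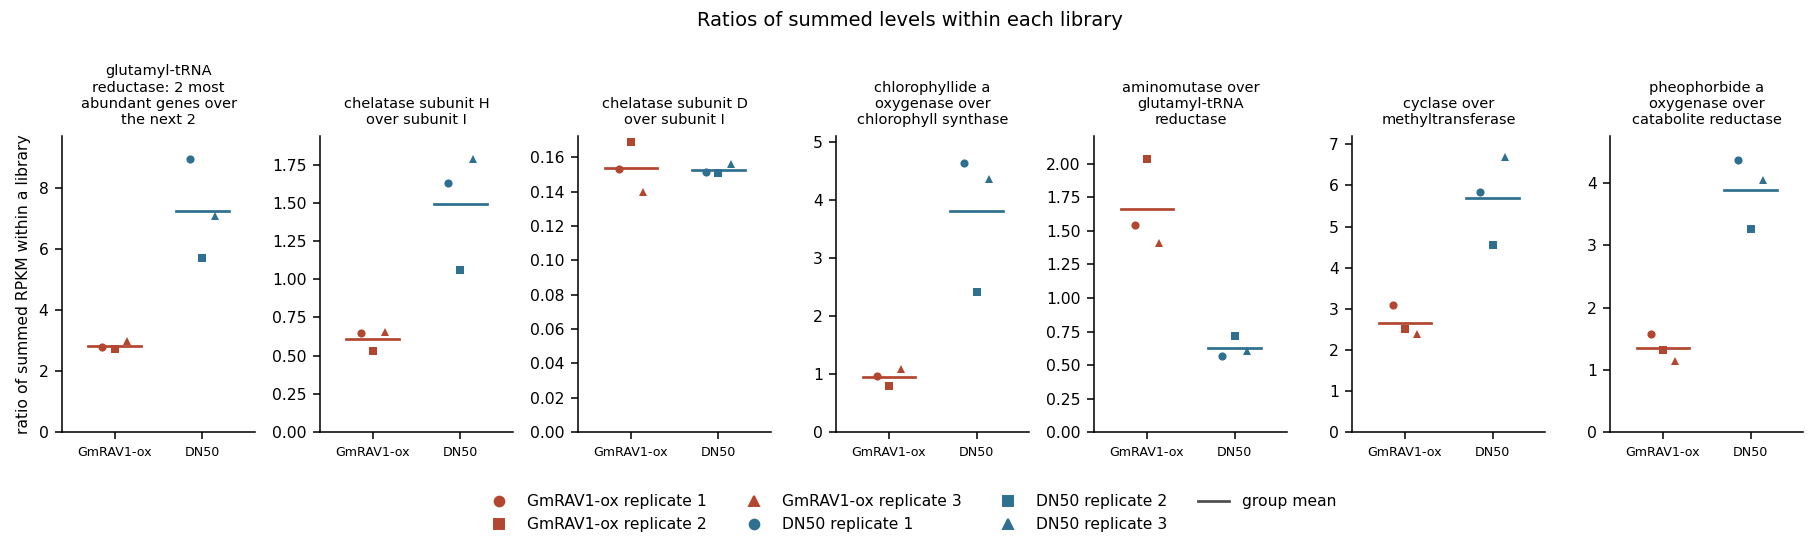
Ratio of summed RPKM of one step, or gene pair, to another within each library (vertical axes from 0), GmRAV1-ox left and DN50 right, with lines at the group means. The groups overlap for subunit D over subunit I and are apart for the other 6 ratios, which were chosen after the values were seen and carry no test. The sums cover members only and leave out genes outside the rule that carry a member's KEGG orthology number.

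The side branches to heme and siroheme had 0 of 8 genes past the test of edgeR and 0 by DESeq2 and limma. At an unadjusted p under 0.05 in edgeR, 2 were lower and 1 higher, beside 10.7% and 10.6% of all tested genes. GmRAV1-ox replicate 3 stood apart from its group in the main genes. Ferrochelatase, which makes heme, is led by Glyma08g00760.1 with 21.6, 14.99 and 55.7 RPKM in the GmRAV1-ox libraries, against 76.9, 49.1 and 63.0 RPKM in the DN50 libraries. Glyma05g33160.1 had 23.6, 19.97 and 46.0 RPKM in the GmRAV1-ox libraries, against 71.7, 44.6 and 67.1 RPKM in the DN50 libraries. In both, GmRAV1-ox replicates 1 and 2 were the lowest libraries and replicate 3 lay within the DN50 range. With all libraries the adjusted p-values were 0.264 and 0.159, and without GmRAV1-ox replicate 3 they were 0.00393 and 0.00578, at log2 fold changes of -1.81 and -1.51. A scarcer ferrochelatase gene, Glyma04g05320.1, had 4.79, 4.38 and 5.19 RPKM in the GmRAV1-ox libraries, against 7.35, 6.69 and 8.76 RPKM in the DN50 libraries. Its groups were apart at a log2 fold change of -0.67 and an adjusted p of 0.135. The other 3 ferrochelatase genes had log2 fold changes of -0.12, 0.06 and 0.08, with groups that overlapped.

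Uroporphyrinogen-III methyltransferase leads to siroheme, the cofactor of nitrite and sulfite reductases. Glyma08g16030.1 had 11.99, 19.9 and 72.3 RPKM in the GmRAV1-ox libraries, against 23.3, 10.2 and 12.2 RPKM in the DN50 libraries, so that GmRAV1-ox replicate 3 alone stood above the rest. Glyma15g42510.1 had 5.30, 7.16 and 13.4 RPKM in the GmRAV1-ox libraries, against 4.77, 4.55 and 4.36 RPKM in the DN50 libraries, also highest in GmRAV1-ox replicate 3. The log2 fold changes of 1.19 and 0.91 did not pass, and they were 0.06 and 0.43 without that library.

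Breakdown genes lay mostly on the lower side in GmRAV1-ox, with 8 of 9 tested estimates below 0, where the median log2 fold change of all tested genes was 0.01. Of the 9, 1 was called lower and 0 higher, beside 0.579% and 0.122% of all tested genes. Pheophorbide a oxygenase, the ring-opening enzyme, has the member Glyma11g19800.1, with 13.2, 11.1 and 14.4 RPKM in the GmRAV1-ox libraries, against 35.4, 24.8 and 35.8 RPKM in the DN50 libraries. The highest GmRAV1-ox library stood at 14.4 RPKM and the lowest DN50 library at 24.8. It fell 2.49-fold, with log2 fold change -1.32 with an SE of 0.20 and an adjusted p of 0.0417. The call was lost in limma on log2 FPKM at either pseudocount (log2 fold changes -1.07 and -1.12). It was also lost when any one of the 4 libraries named above was left out, at log2 fold changes of -1.33 to -1.22. Red chlorophyll catabolite reductase, the enzyme that follows it, has the member Glyma14g01620.1, with 8.34, 8.39 and 12.5 RPKM in the GmRAV1-ox libraries, against 8.10, 7.63 and 8.85 RPKM in the DN50 libraries. Its groups overlapped and GmRAV1-ox replicate 3 was the highest library. The ratio of the oxygenase to this reductase was 1.58, 1.32 and 1.148 in the GmRAV1-ox libraries, against 4.37, 3.25 and 4.05 in the DN50 libraries, with the groups apart. It covers members only and leaves out most of the reductase transcript. Glyma02g47120.1, outside the rule but with the reductase's KEGG orthology number, had means of 42.8 RPKM in GmRAV1-ox and 62.3 RPKM in DN50. The member's means were 9.75 and 8.20 RPKM.

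Stay-green protein, which removes magnesium from chlorophyll a, has 2 members. Glyma01g42390.1 had 6.29, 7.62 and 7.08 RPKM in the GmRAV1-ox libraries, against 10.8, 9.76 and 18.4 RPKM in the DN50 libraries. Glyma11g02980.1 had 3.26, 1.98 and 0.735 RPKM in the GmRAV1-ox libraries, against 4.505, 3.08 and 12.3 RPKM in the DN50 libraries. DN50 replicate 3 was the highest library in both genes, and the groups were apart in the first and overlapped in the second. Neither passed the test, with log2 fold change -0.89 with an SE of 0.29 and an adjusted p of 0.147 for the first. The second had log2 fold change -1.71 with an SE of 0.66 and an adjusted p of 0.197, or a log2 fold change of -0.92 without DN50 replicate 3, and rested on 4 to 20 counts in GmRAV1-ox libraries and 17 to 73 in DN50 libraries.

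Chlorophyll b reductase starts breakdown by turning chlorophyll b towards the a form. Its main gene, Glyma09g32370.1, described as NYC1, had 119.6, 97.0 and 186 RPKM in the GmRAV1-ox libraries, against 181, 171 and 204 RPKM in the DN50 libraries. The second NYC1 gene, Glyma07g09430.1, had 104, 83.5 and 178 RPKM in the GmRAV1-ox libraries, against 181, 167 and 200.2 RPKM in the DN50 libraries. GmRAV1-ox replicates 1 and 2 were far below the DN50 libraries in both, and GmRAV1-ox replicate 3 lay among them. The adjusted p-values were 0.35 and 0.292, and without GmRAV1-ox replicate 3 they were 0.0374 and 0.0177. The third member, described as NOL, had a log2 fold change of -0.27. Chlorophyllase, which cuts off the phytol tail, is led by Glyma10g00570.1 with 64.2, 67.8 and 77.9 RPKM in the GmRAV1-ox libraries, against 91.5, 88.3 and 87.0 RPKM in the DN50 libraries. The groups did not overlap, at a log2 fold change of -0.35 and an adjusted p of 0.257. A second chlorophyllase gene, Glyma07g10840.1, had 33.3, 19.5 and 17.8 RPKM in the GmRAV1-ox libraries, against 35.0, 56.5 and 36.3 RPKM in the DN50 libraries. Here DN50 replicate 2 was the highest library, GmRAV1-ox replicate 1 came close to DN50 replicate 1, and the log2 fold change was -0.86 with an adjusted p of 0.168.

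The senescence-associated members were 10 genes described as carboxylesterase 101-like and 1 as nodulin 1A. In Arabidopsis the protein named SAG101 promotes leaf senescence and takes part in immune signalling with EDS1, and it makes or breaks no chlorophyll. Of the 10 tested, 1 was called lower and 0 higher, beside 0.579% and 0.122% of all tested genes. All 10 estimates lay below 0, where the median log2 fold change of all tested genes was 0.01. Glyma04g38690.1 had 6.23, 5.42 and 6.54 RPKM in the GmRAV1-ox libraries, against 28.9, 18.9 and 32.0 RPKM in the DN50 libraries. The groups were well apart, on 14 to 15 counts in GmRAV1-ox libraries and 41 to 75 in DN50 libraries. Its coding length is only 309 bases, and its best match is the same reference gene as for Glyma04g38700.1, with 1488 bases. Whether these are parts of the same gene was not tested. Glyma04g38690.1 fell 4.37-fold, with log2 fold change -2.13 with an SE of 0.30 and an adjusted p of 0.0363. Leaving out any one of the same 4 libraries ended the call, at log2 fold changes of -2.15 to -1.98.

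The most abundant of these genes, Glyma04g38700.1, had 25.7, 14.9 and 31.1 RPKM in the GmRAV1-ox libraries, against 62.1, 51.1 and 84.8 RPKM in the DN50 libraries. Glyma06g16290.1 had 9.47, 5.98 and 10.98 RPKM in the GmRAV1-ox libraries, against 15.2, 15.4 and 22.9 RPKM in the DN50 libraries. Both kept the groups apart, with GmRAV1-ox replicate 2 lowest and DN50 replicate 3 highest. They did not pass, at log2 fold changes of -1.47 and -1.02 and adjusted p-values of 0.0793 and 0.112, which became 0.00818 and 0.0171 without GmRAV1-ox replicate 3. Nodulin 1A, Glyma07g33090.1, had 4.97, 3.05 and 14.997 RPKM in the GmRAV1-ox libraries, against 13.1, 17.6 and 15.9 RPKM in the DN50 libraries. Its GmRAV1-ox replicate 3 lay among the DN50 libraries, and its adjusted p was 0.31 with all libraries and 0.00364 without that one. Over all 11 genes the summed level was 85.6, 57.3 and 109 RPKM in the GmRAV1-ox libraries, against 165, 155 and 217 RPKM in the DN50 libraries.

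The 2 translocon component 52 genes carry, in the deposited table, the KEGG orthology number of pheophorbide a oxygenase. Glyma08g12070.1 had 1.29, 0.4496 and 1.45 RPKM in the GmRAV1-ox libraries, against 10.2, 6.33 and 10.6 RPKM in the DN50 libraries. Glyma05g28900.1 had 55.3, 43.9 and 58.5 RPKM in the GmRAV1-ox libraries, against 136, 82.4 and 103 RPKM in the DN50 libraries. Every GmRAV1-ox library lay below every DN50 library in both. Glyma08g12070.1 fell 8.57-fold, with log2 fold change -3.10 with an SE of 0.41 and an adjusted p of 0.036, on 6 to 16 counts in GmRAV1-ox libraries and 71 to 128 in DN50 libraries. Leaving out any one of the same 4 libraries ended the call, at log2 fold changes of -3.28 to -2.72. Glyma05g28900.1 did not pass, with log2 fold change -1.03 with an SE of 0.24 and an adjusted p of 0.0955, or 0.0187 without GmRAV1-ox replicate 3.

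The 8 untested members were 3 chlorophyllase genes and 1 each of chlorophyllide a oxygenase, protochlorophyllide reductase, chlorophyll synthase, protoporphyrinogen oxidase and the carboxylesterase 101-like group. Their levels stayed at or under 1.26 RPKM, except for chlorophyllase Glyma07g10860.1, which had 0.876, 0.272 and 0 RPKM in the GmRAV1-ox libraries, against 0.350, 5.50 and 0 RPKM in the DN50 libraries. Only DN50 replicate 2 stood out in that gene.

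Genes of the pathway that the descriptions of the rule do not cover were listed separately. Of 22 such genes, 21 were tested, and their median log2 fold change was -0.24. Of the 21, 1 was called lower and 0 higher, beside 0.579% and 0.122% of all tested genes. Without GmRAV1-ox replicate 3, 4 were called lower and 1 higher, beside 9.66% and 8.62% of all genes. The one called was Glyma13g37010.1, described as GLK1-like. In Arabidopsis the GLK transcription factors promote chloroplast development and activate genes of chlorophyll synthesis and light harvesting. It had 24.4, 24.5 and 18.3 RPKM in the GmRAV1-ox libraries, against 65.6, 55.1 and 62.4 RPKM in the DN50 libraries, with every GmRAV1-ox library under every DN50 library. It fell 2.72-fold, with log2 fold change -1.44 with an SE of 0.18 and an adjusted p of 0.0341. The other two GLK1-like genes, named after their values were seen, lay the same way. Glyma12g33430.1 had 13.5, 14.1 and 5.01 RPKM in the GmRAV1-ox libraries, against 29.1, 27.5 and 22.8 RPKM in the DN50 libraries. Glyma12g13430.1 had 3.85, 4.85 and 1.76 RPKM in the GmRAV1-ox libraries, against 6.62, 8.65 and 6.53 RPKM in the DN50 libraries. GmRAV1-ox replicate 3 was the lowest library in all 3 GLK1-like genes, and these 2 did not pass, at adjusted p-values of 0.123 and 0.161. Without that library Glyma12g33430.1 was called, at a log2 fold change of -0.96 and an adjusted p of 0.00942. The 2 genes described as GLK2-like, Glyma01g21900.1 and Glyma10g34780.1, had estimates on the other side, at log2 fold changes of 0.58 and 0.51 with adjusted p-values of 0.65 and 0.397, and their groups overlapped. The call on Glyma13g37010.1 was lost when any one of the same 4 libraries was left out (log2 fold changes -1.51 to -1.40), and in limma at the smaller pseudocount (-1.27).

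Further genes of that list were also named after their values were seen. The FLU-like gene Glyma07g04650.1 had 26.7, 36.4 and 19.9 RPKM in the GmRAV1-ox libraries, against 17.7, 18.9 and 11.95 RPKM in the DN50 libraries. In Arabidopsis FLU holds back glutamyl-tRNA reductase in the dark. Every GmRAV1-ox library lay above every DN50 library, at a log2 fold change of 0.77 and an adjusted p of 0.166, or 0.0246 without GmRAV1-ox replicate 3. Tetrapyrrole-binding protein, known as GUN4 and an activator of magnesium chelatase, had log2 fold changes of -0.76 and -0.56 in its 2 genes, with the groups apart and adjusted p-values of 0.111 and 0.139, and the first, Glyma11g13650.1, passed without GmRAV1-ox replicate 3 (adjusted p 0.0479). The 7-hydroxymethyl chlorophyll a reductase gene Glyma10g25710.1, which acts after chlorophyll b reductase, had -0.60 (adjusted p 0.149, or 0.0405 without GmRAV1-ox replicate 3). Geranylgeranyl reductase supplies the phytol tail. Its most abundant gene, Glyma17g10890.1, had -0.40 (adjusted p 0.404), Glyma05g01000.1 had -0.51 (adjusted p 0.266) and the scarce Glyma02g44150.1 had 0.11 (adjusted p 0.838).

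A further 6 genes carry the orthology number of a member enzyme but a description that names no such enzyme. Of these 6, 1 was called lower and 0 higher, beside 0.579% and 0.122% of all tested genes, and the median log2 fold change was 0.15. Glyma12g08740.1, with the number of pheophorbide a oxygenase, had 7.66, 4.88 and 7.42 RPKM in the GmRAV1-ox libraries, against 17.5, 13.9 and 20.97 RPKM in the DN50 libraries. Its groups were apart, with log2 fold change -1.39 with an SE of 0.24 and an adjusted p of 0.0487. The call was lost with relative log expression scaling (adjusted p 0.0504) and in 10 other alternatives. Its counts and those of the member Glyma11g19800.1 are not whole in any library but add to whole numbers. These 2 genes therefore share reads and are not separate results. Glyma02g47120.1, with the number of red chlorophyll catabolite reductase, had 39.4, 42.4 and 46.7 RPKM in the GmRAV1-ox libraries, against 65.5, 57.5 and 64.0 RPKM in the DN50 libraries. It is the more abundant of the 2 genes with that number, and its groups were apart at a log2 fold change of -0.54 and an adjusted p of 0.124, or 0.0372 without GmRAV1-ox replicate 3.

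**Figure D5:**
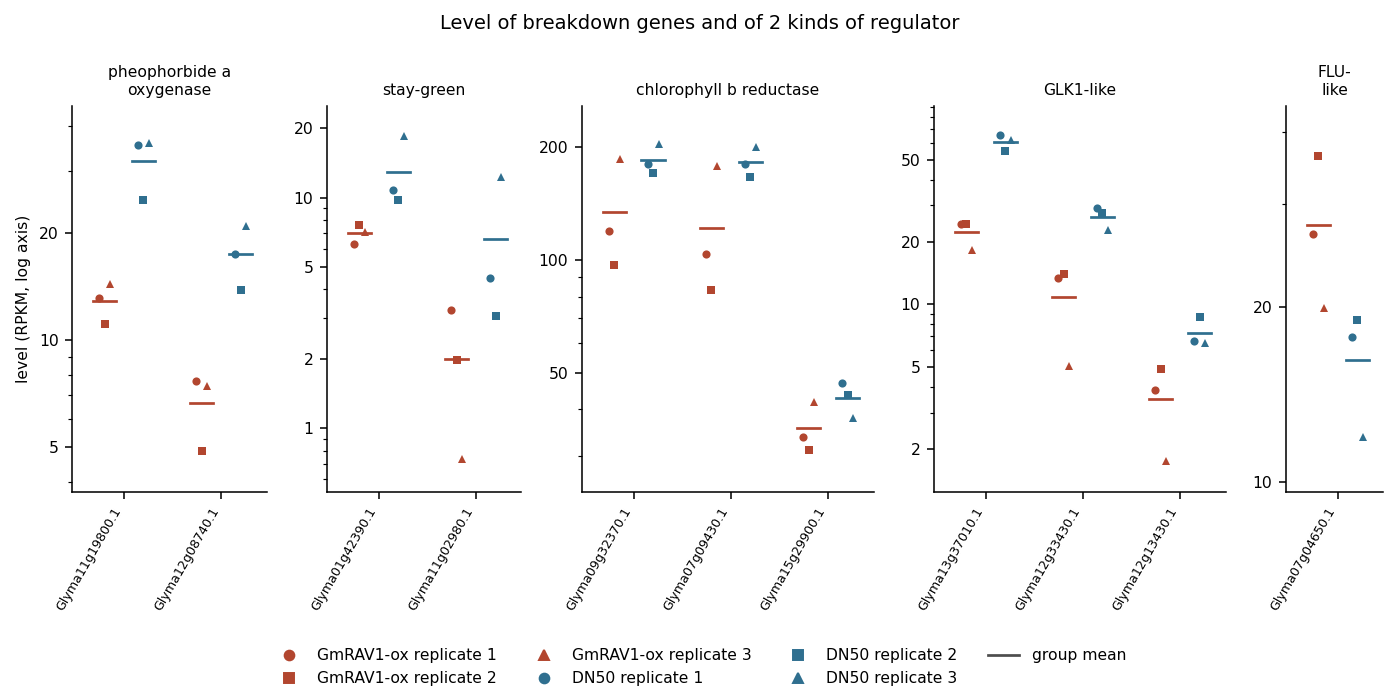
Level in RPKM (log axis) of pheophorbide a oxygenase, stay-green and chlorophyll b reductase genes, of the 3 GLK1-like genes and of the FLU-like gene in each library, GmRAV1-ox left of DN50 for each gene, with lines at the group means. Glyma12g08740.1 carries the oxygenase's orthology number only. GmRAV1-ox replicate 3 lies among the DN50 libraries in both NYC1 genes and is the lowest library in all 3 GLK1-like genes.

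The chlorophyll a-b binding proteins hold the finished pigment in the antenna. Of their 28 genes, all tested, 0 passed the adjusted threshold of edgeR's quasi-likelihood test and 0 did so in limma. DESeq2 called 2 lower, beside 3.96% of all genes. At an unadjusted p under 0.05 in edgeR, 5 were lower, beside 10.7% of all tested genes. Estimates lay below 0 for 27, with a median of -0.60. Their summed level was 41327, 30179 and 51604 RPKM in the GmRAV1-ox libraries and 71820.0, 56685 and 49861 RPKM in the DN50 libraries, where GmRAV1-ox replicate 3 fell within the DN50 range. Of the 36 leaf marker genes, which include these 28, 0 were called (5 lower by DESeq2) and 34 had estimates below 0 with a median of -0.61, and their part in the results above was not tested.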

How the data were processed

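Estimated counts and FPKM values came per gene and library, with a coding length, as deposited per the file headers. Of the estimated counts, 29.6% to 30.5% are not whole, a sign of reads shared between genes. This holds in all libraries for several duplicate copies. Among them are the abundant pair of glutamyl-tRNA reductase genes, 2 of the subunit H genes, both NYC1 genes and the 2 main ferrochelatase genes. In such copies the split of the reads is less sure than the sum. The submitters' processing notes name TopHat and Cufflinks without versions, and the genome build is not given in the sources used here. Counts were rounded. RPKM was computed from counts, coding length and TMM-scaled library totals, in the usual way. In R 4.3.3, filterByExpr of edgeR 4.0.16 kept 26272 of 36827 genes, TMM factors ran from 0.849 to 1.17, and the quasi-likelihood F test (2-sided, robust) compared GmRAV1-ox with DN50, with p-values adjusted by Benjamini and Hochberg's method across the tested genes and calls made under 0.05. The test was checked on simulated data with the same dispersion for every gene, no outlying library and no shared reads. That check therefore does not cover a library such as GmRAV1-ox replicate 3 or reads shared between copies.

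Members and lists were chosen with earlier results of these data known. Values per library are given for called members, the most abundant of each step and the 3 of smallest p per list; other genes with such values, and the ratios, were chosen after their values were seen. The planned KEGG map list could not be formed from orthology numbers alone, and genes sharing a member's number took its place. Alternatives were other scalings, filters and tools (DESeq2 1.42.0, limma 3.58.1), a replicate block and leaving out each library. The reference gene table (Glycine_max_v4.0) matched 62 of the 70 members that carry a RefSeq accession. Promoter and protein sequences were not used here.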

Additional observations from a re-analysis of the deposited data

How the results depend on the processing

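Over 16 alternatives, the count of members called lower stayed at 4 to 6 under other scalings, filters, limma and the newer form of the quasi-likelihood fit, the last chosen after seeing the data. DESeq2 called 16. Of the members whose counts are whole in all libraries, 1 was called. Leaving out one library gave 0 to 22 lower and 0 to 3 higher. The median of the heme and siroheme branch was 0.16 without scaling factors, 0.15 and 0.17 in limma with pseudocounts of 1 and 0.1, and -0.17 to 0.04 when one library was left out, and that of the magnesium branch was -0.18 in limma with a pseudocount of 1. FPKM carries no such factors, and without them the median of all genes moves to 0.20. Leaving out one library turned the sign for Glyma01g43630.1 (-0.13 to 0.17), Glyma13g30560.1 (-0.16 to 0.18), Glyma18g43310.1 (-0.11 to 0.02) and the RAV genes Glyma01g22260.1 (-0.34 to 0.13), Glyma02g11060.1 (-0.59 to 0.07) and Glyma10g34760.1 (-0.26 to 0.45). Without scaling factors and in limma (pseudocounts 1 and 0.1), Glyma18g43310.1 was at 0.18, 0.16 and 0.16, Glyma01g22260.1 at 0.10, 0.11 and 0.12, and Glyma10g34760.1 at 0.12, 0.20 and 0.25. The cause of these changes was not tested.

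Neither the labels nor the values show that replicate numbers pair the libraries. Deviations of same-numbered libraries correlated at -0.30, 0.40 and 0.30. GmRAV1-ox replicates 2 and 3 correlated best with their own number in DN50, and GmRAV1-ox replicate 1 with DN50 replicate 2. With the replicate block, 13 members were called lower and 1 higher, beside 3.57% and 2.6% of all genes, and Glyma10g34760.1 was at 0.05. Depth limits the 8 untested members and the genes with under 20 counts in a group, where a difference was not detectable or rests on few reads.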
